A study of Mus musculus with 6 samples.

Results

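The epithelial identity and junction genes are a set of 33 genes that mark and hold together epithelial sheets: keratins, claudins and other tight junction proteins, desmosomal and basal adhesion proteins, polarity and sorting proteins, epithelial splicing regulators, and surface proteins. They were followed through every probe set that the platform annotation gives to 1 of these symbols alone, which made 58 of 45037 probe sets and 33 of 18193 named genes. RNA was taken from microdissected otic vesicles, closed sacs of epithelium from which the inner ear grows, of mouse embryos at embryonic day 11.5. The 3 Mest-KO arrays carried T-Cre-mediated conditional Tbx1 mutants, in which T-Cre, a recombinase driven by a promoter of early mesoderm, deletes the transcription factor gene Tbx1. The 3 control arrays carried T-Cre conditional Tbx1 heterozygotes, so T-Cre was present in both groups and the controls were not wild type at Tbx1. For each array, both ears of 3 embryos sharing a genotype were pooled, and no strain is named in the labels. The comparison asks whether deleting Tbx1 in the mesoderm alters the neighbouring vesicle, itself an epithelium. Tbx1 had intensities of 910, 704 and 713 in Mest-KO, against 898, 690 and 766 in control, which overlapped, and the deletion was directed at tissue outside the vesicle.

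In a simple epithelium, claudins and occludin form the tight junctions that seal the space between cells, and scaffold proteins anchor them. Desmosomes join the keratin filaments of neighbouring cells, and integrins fix the basal surface to the basement membrane. Keratins work as pairs of a type I and a type II chain, and Krt8 with Krt18 is the pair of simple epithelia, while Krt5 with Krt14 is that of the basal layer of stratified epithelia such as skin. The otic vesicle arises from a placode of the surface ectoderm and stays epithelial as it grows.

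The mean log2 level of the epithelial set was nearly the same in both groups. Of its 58 probe sets, 50, reading 31 of the 33 genes, passed the filter on dim signals (a mean above the 40th percentile, an intensity of 34.4), and Krt5 and Krt14 did not. Levels are quantile-normalized log2 intensities, and a change is the mean of Mest-KO minus that of control on this log2 scale, given with its SE and n = 3 arrays per group. The mean level of the 50 probe sets was 10.02, 9.98 and 9.99 on the Mest-KO arrays, against 9.98, 10.05 and 10.05 on the control arrays. These values overlapped, and the full range over 6 arrays was 0.08. The summed deposited intensity of the 50 was 102769, 98782 and 100328 in Mest-KO, against 102838, 109848 and 109959 in control. Those sums did not overlap, although Mest-KO 1 and control 1 were almost equal. With limma and Benjamini-Hochberg adjustment over all 27022 probe sets tested, 0 of the 50 passed an adjusted p under 0.05, and the background share was 0 percent. At an unadjusted p under 0.05 the count was also 0, against 3.98% of all probe sets tested (2.25% lower and 1.74% higher), and the smallest unadjusted limma p among the 50 was 0.0592. In limma with a prior that follows level, 5 of the 50 had an unadjusted p under 0.05 and lay lower, against 2.4% of all probe sets lower and 2.25% higher, and 0 passed after adjustment, against 0.0518% of all. Read as 1 probe set per gene, 31 genes were tested and 0 passed or had an unadjusted p under 0.05, against 5.14% of 12462 genes at an unadjusted p under 0.05.

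Of the 50 probe sets, 35 lay lower and 15 higher in Mest-KO, and 51.7% of all probe sets tested lay lower. With median centring, which moved the median of all probe sets to -0.12, 42 lay lower and 8 higher, and with the deposited scaling 33 and 17. Under both, 36 of the 50 lay below the median of all. Their median change was -0.04, beside -0.01 over all probe sets tested, and -0.08 without Mest-KO 1. With median centring it was -0.20, and relative to all probe sets it was -0.07 with median centring and with the deposited scaling, against -0.03 with quantile normalization. Single changes ran from -0.33 to 0.38, and 47 of the 50 were under 0.25 in size. The 95% confidence interval included 0 for all 50, and for 48 it lay wholly inside a 2-fold change in either direction. That was 96.0% of the members, beside 84.8% of all probe sets tested. An interval inside 1.5-fold was reached by 40 of them. The members were also brighter than most, since 46 of the 50, and 66.7% of all probe sets tested, lay above the 60th percentile. The SE of the members had a median of 0.125, against 0.151 over all.

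**Figure D1:**
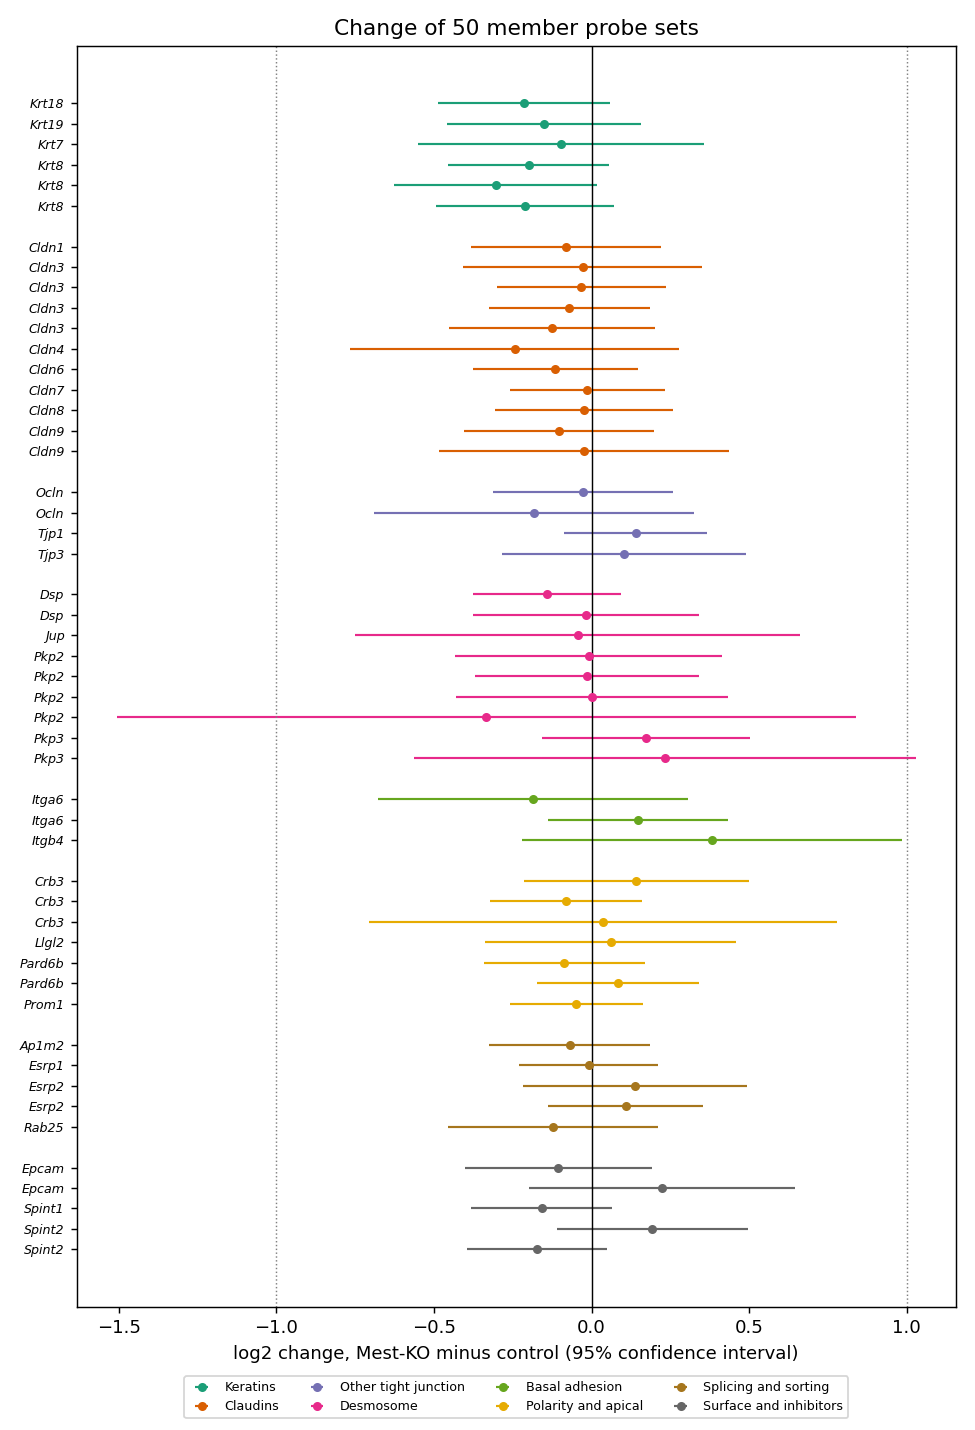
Log2 change (Mest-KO minus control) of the 50 member probe sets that passed the filter, on the x axis, with 95% confidence intervals of the limma fit, grouped by role. Dotted lines mark a 2-fold change; all 50 intervals include 0, and the intervals of 1 Pkp2 and 1 Pkp3 probe set, both dim, reach past 2-fold.

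**Figure D2:**
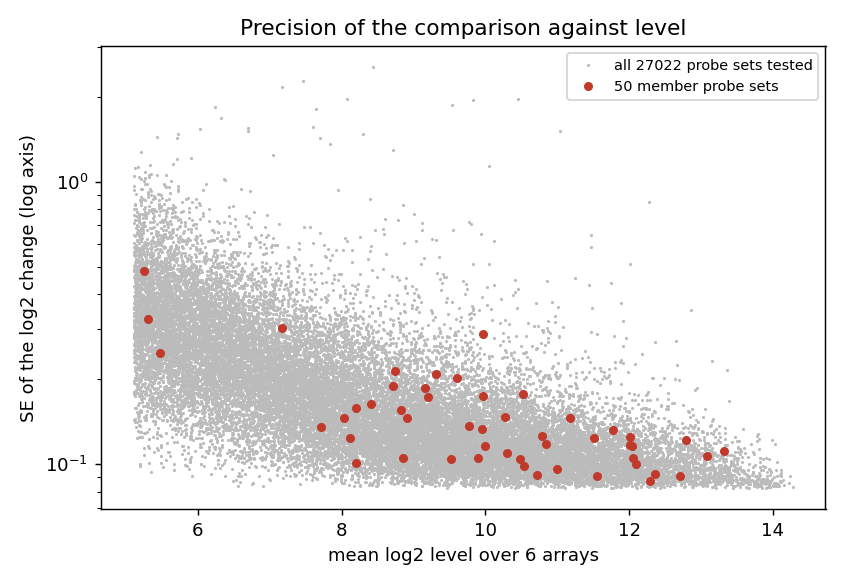
SE of the log2 change (log axis) against mean log2 level for the 27022 probe sets tested (grey) and the 50 members (red). The members lie mostly at high levels, and their SE runs from 0.0872 to 0.481.

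Promoter sequences are shown because many of them hold a short sequence that the choice of members did not use. RefSeq promoters of build GRCm38.p6 matched 23 of the 33 genes, with 28 transcript starts in all, and the 250 bases before each start were read. The sequence CACCTG, or CAGGTG on the other strand, is an E-box bound by the repressors Zeb1, Zeb2, Snai1 and Snai2, which silence epithelial genes when cells turn mesenchymal. It was found in 18 of the 28 windows, in 16 of the 23 genes, and in 17.2% of the 32851 windows of all RefSeq genes or 16.9% of those of protein-coding genes. Crb3, Ocln, Tjp3, Cldn7 and Prom1 have 2 windows each, overlapping in Crb3 and Ocln, so windows are not independent. Capitals mark the E-box in the windows of the keratin pair Krt8 (chr15:102004343-102004592, minus strand) and Krt18 (chr15:102027966-102028215, plus strand), of Epcam (chr17:87635729-87635978, plus strand), and of 2 genes with many copies, Spint2 (chr7:29281978-29282227, minus strand) and Ap1m2 (chr9:21312334-21312583, minus strand), each written along the gene's strand:
Krt8: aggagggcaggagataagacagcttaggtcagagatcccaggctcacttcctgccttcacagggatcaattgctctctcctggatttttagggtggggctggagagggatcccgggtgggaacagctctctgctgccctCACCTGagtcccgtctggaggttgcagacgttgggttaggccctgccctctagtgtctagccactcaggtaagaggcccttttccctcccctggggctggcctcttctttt
Krt18: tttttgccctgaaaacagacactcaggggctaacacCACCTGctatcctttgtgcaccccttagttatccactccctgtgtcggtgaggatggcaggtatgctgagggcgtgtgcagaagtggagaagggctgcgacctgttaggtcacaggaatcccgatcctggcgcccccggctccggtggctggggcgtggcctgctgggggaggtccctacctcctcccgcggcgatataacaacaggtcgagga
Epcam: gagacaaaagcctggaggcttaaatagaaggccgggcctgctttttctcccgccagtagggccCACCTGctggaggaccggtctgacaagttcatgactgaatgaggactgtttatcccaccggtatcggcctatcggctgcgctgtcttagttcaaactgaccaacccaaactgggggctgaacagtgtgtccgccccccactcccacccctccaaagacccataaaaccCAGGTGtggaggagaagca
Spint2: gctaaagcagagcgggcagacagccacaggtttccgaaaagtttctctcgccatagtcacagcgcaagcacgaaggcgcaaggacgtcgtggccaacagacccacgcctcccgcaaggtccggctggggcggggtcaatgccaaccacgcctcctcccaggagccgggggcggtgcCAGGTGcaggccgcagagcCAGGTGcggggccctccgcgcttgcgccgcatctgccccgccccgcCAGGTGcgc
Ap1m2: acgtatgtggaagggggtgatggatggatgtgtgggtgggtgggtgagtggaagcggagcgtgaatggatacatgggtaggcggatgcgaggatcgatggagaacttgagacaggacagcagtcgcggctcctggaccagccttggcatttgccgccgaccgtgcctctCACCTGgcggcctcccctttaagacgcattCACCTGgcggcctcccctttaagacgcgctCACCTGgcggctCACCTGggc

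Ap1m2 held 4 copies, starting 81, 51, 21 and 9 bases before the transcript start. Spint2 held 3, at 74, 55 and 9 bases, and Epcam held a pair at 187 and 19 bases. The E-box of Krt8 lay 111 bases and that of Krt18 lay 214 bases upstream, and the E-boxes of Cldn6 and Cldn4 lay 93 and 14 bases upstream. In all 8 motifs were searched on both strands. The GC box GGGCGG was in 18 of the 28 windows and in 32.7% of all windows, or 42.6% of protein-coding ones, and it overlaps the longer GGGGCGGGG (6 windows, 10.4% of all). The letters TATAAA were in 0 of the 28 and in 12.4% of all windows, and CCAAT in 5 and 33.9%. AACCNGTT, a form of the site of the epithelial Grainyhead-like factors, was in 3 windows, in the genes Prom1 and Rab25, and in 1.79% of all. TGANTCA was in 3 windows and 6.75% of all, and CCCCTCCCC in 1 and 5.75%. These are matches of letters and carry no measurement of binding.

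Keratins had the lowest median change among the roles. All 6 tested probe sets, 3 of them reading Krt8 and the others Krt7, Krt18 and Krt19, were lower in Mest-KO. Under quantile normalization 51.7% of all probe sets tested lay lower. The signs were the same under median centring and the deposited scaling of these arrays, and 0 passed the test. The median change was -0.21 with quantile normalization, -0.39 with median centring and -0.24 with the deposited scaling. Relative to the median of all probe sets it was -0.20, -0.27 and -0.27. Krt8, the type II chain of simple epithelia, had intensities of 3846, 3736 and 4305 in Mest-KO at its brightest probe set, against 4516, 4669 and 4763 in control. Every Mest-KO array lay below every control array there, with means of 3962 ± 302 and 4649 ± 125 (SD, n = 3 each). The log2 change was -0.20 (SE 0.105), a fold of 0.871, with a 95% interval from -0.45 to 0.06 (limma adjusted p = 0.9695, unadjusted 0.106).

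The other Krt8 probe sets, both of a design whose probes can also bind related transcripts, gave changes of the same sign. The first had 3028, 2841 and 3590 in Mest-KO, against 3610, 4103 and 4163 in control, and a change of -0.30 (SE 0.132). The second had 3870, 3500 and 4244 in Mest-KO, against 4218, 4784 and 4777 in control, and a change of -0.21 (SE 0.116). In the normalized values both overlapped between the groups, with Mest-KO 3 inside the range of the controls.

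Krt18, the type I partner of Krt8, had 10364, 8598 and 9104 in Mest-KO, against 10424, 11813 and 11854 in control. The groups did not overlap, although Mest-KO 1 and control 1 were almost equal. The change was -0.21 (SE 0.112), with an interval from -0.49 to 0.06 (limma adjusted p = 0.9695, unadjusted 0.104). With an array left out it ran from -0.30 to -0.13, and that of the brightest Krt8 probe set from -0.28 to -0.14.

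**Figure D3:**
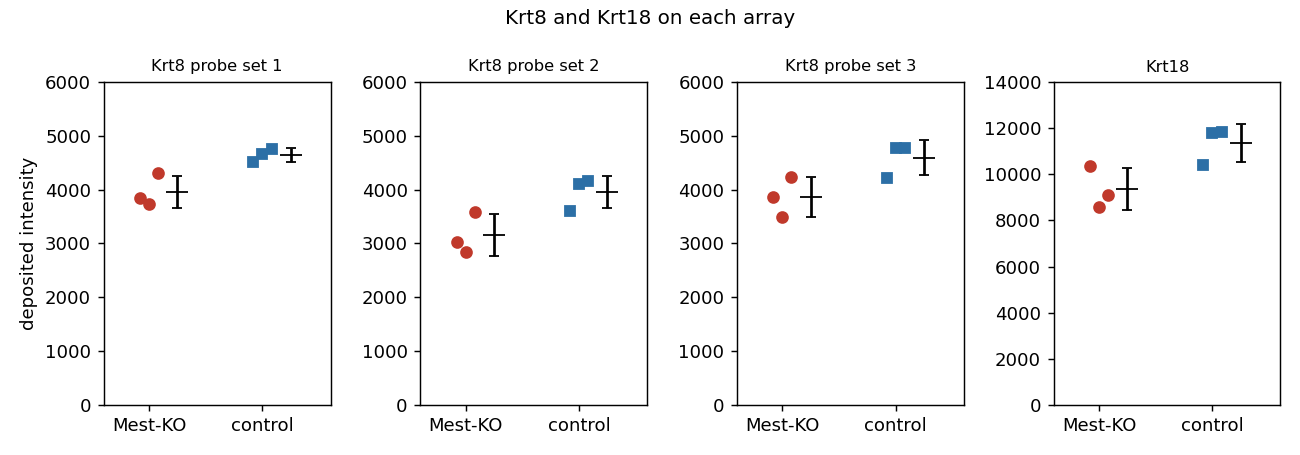
Deposited intensity (y axis, from 0) of the 3 Krt8 probe sets, in the order of the text, and of Krt18 on each array, Mest-KO in red circles and control in blue squares, with mean and SD in black. The Mest-KO mean is lower in all 4 panels, and Mest-KO 3 for Krt8 and Mest-KO 1 for Krt18 come close to the controls.

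Krt19, a type I keratin of simple epithelia and ducts, had 1933, 1476 and 1670 in Mest-KO, against 1753, 1956 and 1930 in control, and a change of -0.15 (SE 0.126). Krt7, a type II keratin of simple epithelia, had 494, 529 and 666 in Mest-KO, against 552, 514 and 725 in control, and a change of -0.10 (SE 0.186). Both overlapped between the groups, and the sign of Krt7 turned when control 3 was left out, at 0.06. The stratified pair was at the dim end. Krt5 had 10.9, 54.1 and 49.7 in Mest-KO, against 4.07, 18.9 and 10.3 in control, below the filter. Mest-KO 2 and 3 were above every control, but Mest-KO 1 was inside their range. The 3 probe sets of Krt14 ran from 0.917 to 58.4 in Mest-KO and from 0.598 to 22.3 in control.

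The lower keratin values moved with markers of other tissue in part of the arrays. The mean keratin level was lowest in Mest-KO 2, at 11.28, where the periotic mesenchyme markers were highest, at 8.76, and it was highest in control 3, at 11.71, where those markers were lowest, at 7.13. Mest-KO 1, however, combined a keratin level of 11.44 with mesenchyme markers at 7.30, near control 3. The part of the mesenchyme in the keratin values was not tested. Fewer epithelial cells in a pool and less RNA per cell cannot be told apart in such bulk samples.

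Claudins, the membrane proteins that set the tightness of the seal, showed small differences. All 11 tested probe sets of the 7 genes lay lower in Mest-KO, by 0.01 to 0.24 log2 units, with a median of -0.07, beside 51.7% of all probe sets lower. With the deposited scaling 10 of the 11 lay lower. The sign did not hold with every array left out: at the brightest probe set of each gene, Cldn3, Cldn7 and Cldn8 were at 0.05, 0.03 and 0.02 without control 3, Cldn7 at 0.04 without Mest-KO 2 and Cldn8 at 0.07 without Mest-KO 1. None was apart between the groups, against a background of 9.37% of probe sets with no overlap, and 0 passed. Cldn6, a claudin of embryonic epithelia, had 8584, 7824 and 8285 in Mest-KO, against 8054, 10039 and 9960 in control. Control 1 lay among the Mest-KO arrays, and the change was -0.11 (SE 0.107). Cldn9, a paralog of Cldn6 and needed for hearing in mice, had 3023, 2661 and 2749 in Mest-KO, against 3429, 3036 and 2710 in control at its brighter probe set, and a change of -0.10 (SE 0.124). Its other probe set gave -0.02.

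Cldn7, which is also found along the lateral membrane, had 4443, 4073 and 4418 in Mest-KO, against 4128, 4474 and 4795 in control. Its change of -0.01 (SE 0.1004) had an interval from -0.26 to 0.23. Cldn3, a sealing claudin, was read by 4 probe sets, whose changes ran from -0.13 to -0.03. Its neighbour on chromosome 5, Cldn4, had the largest claudin change, -0.24 (SE 0.214), with 368, 353 and 484 in Mest-KO, against 362, 516 and 536 in control. That gene varied as much within the groups, since control 1 lay with Mest-KO 1 and 2. Cldn1, a claudin of the skin barrier, and Cldn8, a claudin of tight epithelia, differed by -0.08 (SE 0.124) and -0.02 (SE 0.116). The 3 other probe sets of Cldn1 were below the filter, at 0.127 to 27.2 in Mest-KO and 0.144 to 33.8 in control.

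The remaining tight junction members split by sign. Tjp1, the scaffold protein ZO-1, had 5292, 5998 and 5157 in Mest-KO, against 4862, 5310 and 5136 in control. The deposited values overlapped and the normalized ones did not. On the normalized scale Tjp1 was the 1 member whose groups were apart with Mest-KO higher (background 4.17%). Its change was 0.14 (SE 0.0926), with an interval from -0.09 to 0.37. Tjp3, the scaffold ZO-3, differed by 0.10 (SE 0.159). Ocln, the membrane protein occludin, had 1896, 1793 and 1759 in Mest-KO, against 1636, 2081 and 1886 in control, and differed by -0.03 (SE 0.118), with -0.18 (SE 0.209) at its second probe set.

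In the desmosome, 6 of 9 tested probe sets lay lower and 0 passed. Dsp, desmoplakin, which ties keratin filaments to the junction, had 1930, 1967 and 1902 in Mest-KO, against 1981, 2277 and 2200 in control. All Mest-KO arrays were below all controls, and the change was -0.14 (SE 0.0959). A second Dsp probe set of a design shared with other transcripts gave -0.02 (SE 0.147), with overlap, and another was below the filter.

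Jup, plakoglobin, shared by desmosomes and adherens junctions, had 655, 1432 and 1026 in Mest-KO, against 1122, 955 and 966 in control. It was the most scattered of the bright members, as Mest-KO 1 and 2 lay on opposite sides of every control. Its change of -0.04 (SE 0.290) had an interval from -0.75 to 0.66. Pkp2 and Pkp3 are plakophilins, plaque proteins of the desmosome. The 3 brighter probe sets of Pkp2 differed by -0.01, -0.01 and 0.00, and the brightest of them had 1872, 1298 and 1317 in Mest-KO, against 1628, 1541 and 1272 in control. Pkp3 had 209, 210 and 265 in Mest-KO, against 208, 203 and 173 in control, and a change of 0.17 (SE 0.135).

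At the basal surface, the laminin receptor subunit Itga6 had 3927, 4926 and 4038 in Mest-KO, against 3963, 3792 and 4120 in control. Only Mest-KO 2 stood above the controls, and the change was 0.15 (SE 0.117), while a dimmer probe set gave -0.19 (SE 0.202). Itgb4, its partner in hemidesmosomes, was dim, with 41.7, 68.7 and 58.8 in Mest-KO, against 41.1, 39.96 and 29.3 in control. It had the largest positive change of the set, 0.38 (SE 0.247), with an interval from -0.22 to 0.98 (limma adjusted p = 0.9695). The value rested on single arrays and on scaling, at 0.15 without Mest-KO 2, 0.23 without control 3, 0.57 without Mest-KO 3 and 0.60 with the deposited scaling. Without Mest-KO 2 it was below that of Pkp3, 0.21.

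Of the 7 polarity and apical probe sets, 3 lay lower and 4 higher, and with median centring 6 lay lower. Prom1, the apical membrane glycoprotein prominin, had 5107, 4728 and 4744 in Mest-KO, against 5089, 5368 and 5111 in control, and a change of -0.05 (SE 0.0872), the smallest SE of the 50. Crb3, the small Crumbs protein of the apical membrane, gave -0.08 (SE 0.0989) at its brightest probe set and 0.14 (SE 0.146) and 0.04 (SE 0.305) at the others. Pard6b, of the Par polarity complex, gave -0.09 (SE 0.105) and 0.08 (SE 0.105). Llgl2, a basolateral polarity protein, differed by 0.06 (SE 0.163). The mean of these 7 probe sets was 9.33, 9.29 and 9.35 on the Mest-KO arrays, against 9.26, 9.32 and 9.34 on the controls, with overlap.

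The epithelial splicing regulators Esrp1 and Esrp2 direct epithelial forms of many transcripts, including those of FGF receptors. Esrp1 had 6375, 6630 and 6772 in Mest-KO, against 6424, 6951 and 7132 in control, and a change of -0.01 (SE 0.0910), with an interval from -0.23 to 0.21. Esrp2 had 2006, 2579 and 2729 in Mest-KO, against 2145, 2177 and 2298 in control, and a change of 0.14 (SE 0.146), with 0.11 (SE 0.101) at its second probe set. Mest-KO 1 was the lowest and the other Mest-KO arrays were the highest of the 6 for the brighter Esrp2 probe set. Rab25, a small GTPase of apical recycling, differed by -0.12 (SE 0.137), and Mest-KO 3, at 690, was the lowest array, against 892 or more on the others. Ap1m2, the epithelial subunit of the AP-1 sorting adaptor, differed by -0.07 (SE 0.105).

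Epcam, the epithelial cell adhesion molecule, had 7733, 6161 and 6485 in Mest-KO at its brighter probe set, against 7259, 7849 and 7251 in control. Mest-KO 1 lay inside the range of the controls and the other Mest-KO arrays below it. The means were 6793 ± 830 in Mest-KO and 7453 ± 343 in control (SD, n = 3 each), with a change of -0.11 (SE 0.122) and an interval from -0.40 to 0.19. A second probe set, of the cross-hybridising design, gave 0.22 (SE 0.173). Spint1 and Spint2 are transmembrane inhibitors of serine proteases such as matriptase. Spint1 had 1605, 1535 and 1633 in Mest-KO, against 1872, 1761 and 1712 in control, with no overlap and a change of -0.16 (SE 0.0915). Spint2 was read in opposite directions. One probe set had 2980, 2695 and 2797 in Mest-KO, against 3241, 3174 and 3210 in control, with no overlap and -0.17 (SE 0.0911). The other, brighter one is of the cross-hybridising design. It had 4210, 5124 and 3868 in Mest-KO, against 3950, 3831 and 3961 in control, with overlap and 0.19 (SE 0.124).

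Probe sets of 1 gene thus did not always point the same way. Of the 13 genes with several tested probe sets, 6 had both signs, namely Epcam, Spint2, Crb3, Pard6b, Itga6 and Pkp2. In all, 12 of the 50 were of a shared or cross-hybridising design. They include the only Jup probe set and the brightest of Esrp2, Crb3 and Pkp2. Without these 12 the median change was -0.04. In the normalized values the groups were apart in 6 of the 50 probe sets, 5 of them lower (Krt8, Krt18, Dsp, Spint1 and Spint2) and 1 higher (Tjp1). The background was 5.2% for lower and 4.17% for higher probe sets. In the deposited values another Krt8 probe set was also apart with Mest-KO lower. On that scale Tjp1 overlapped, while Itgb4, the brighter Pkp3 and the dimmer Esrp2 probe set were narrowly apart with Mest-KO higher. On the array map no array was low or high for the whole set. Mest-KO 2 gave the lowest value of the 6 arrays for 19 of the 50 probe sets, and control 3 the highest for 19. With single arrays left out, 31 of the 50 kept their sign throughout.

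**Figure D4:**
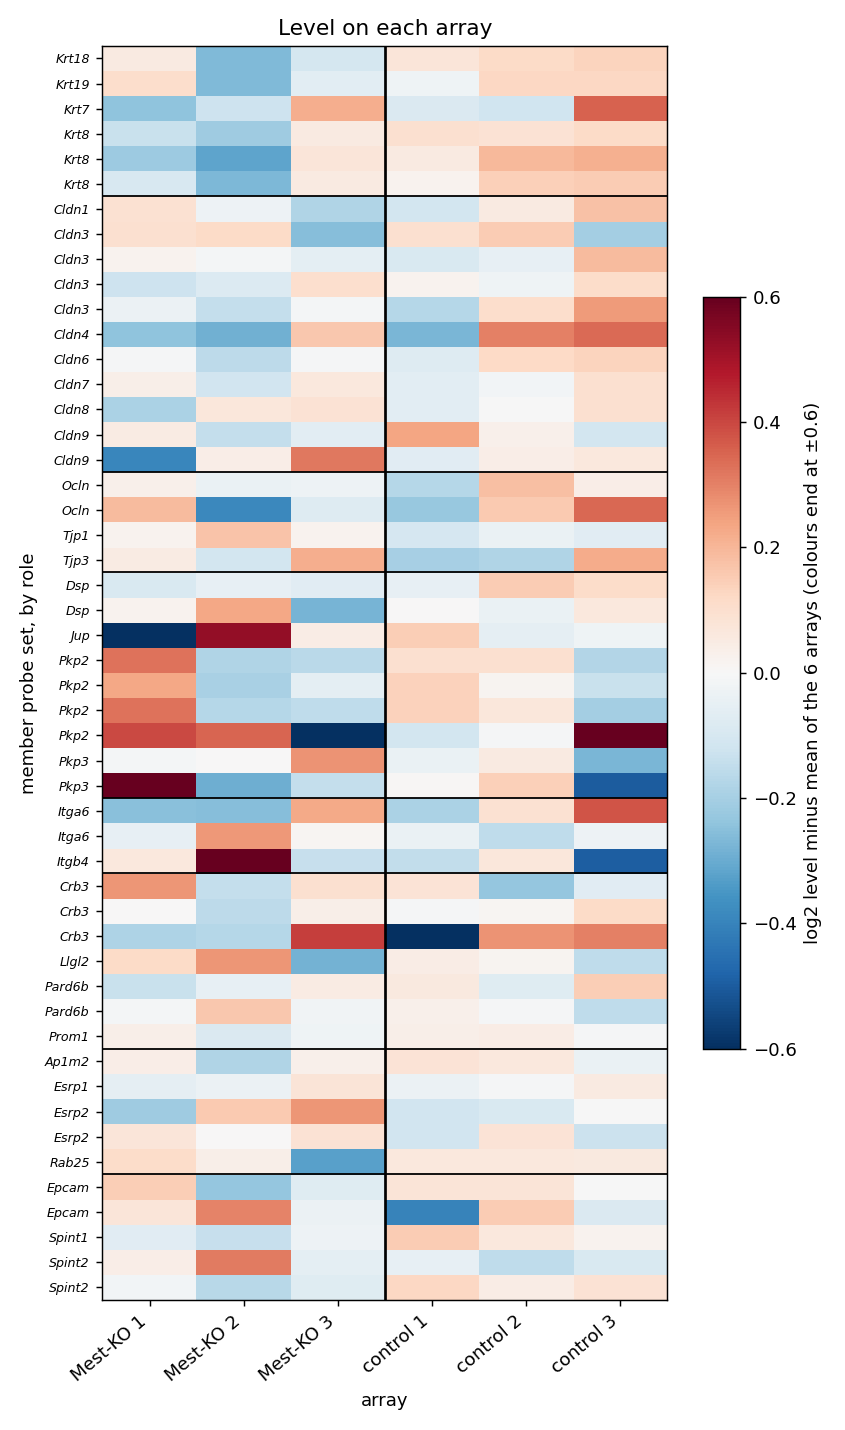
Normalized log2 level of each member probe set (rows, by role) on each array (columns, Mest-KO left of control), as the difference from its mean over the 6 arrays. Keratin rows are mostly low in Mest-KO 2 and high in control 3, while Jup, the dim Pkp2 and Pkp3 probe sets, Itgb4 and 1 Crb3 probe set vary most from array to array.

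A second list of 64 epithelial and junction genes outside the set was read beside the set, with 61 genes found on the array. Of its 91 tested probe sets, 55 lay lower and 36 higher, with a median of -0.02, 0 passed, and 3 had an unadjusted p under 0.05, all lower, against a background of 2.25%. These were Cd9, a tetraspanin, at -0.27 (SE 0.0932), Pkp4, a plakophilin relative of adherens junctions, at -0.33 (SE 0.121), and Elf3, an epithelial transcription factor, at -0.31 (SE 0.126). Cdh1, E-cadherin, had 4660, 4489 and 4188 in Mest-KO, against 4814, 4532 and 4648 in control, and a change of -0.03 (SE 0.0930). The values of Cdh1 overlapped between the groups.

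The tissue label was checked against marker lists. All 15 otic vesicle genes found on the array passed the filter, and their mean level was 9.79, 9.59 and 9.65 in Mest-KO, against 9.69, 9.71 and 9.68 in control. Surface and pharyngeal epithelium, another possible source of epithelial signal, had 10 of 13 genes above the filter. Its mean level was 6.91, 7.69 and 7.21 in Mest-KO, against 7.17, 7.28 and 6.98 in control, highest in Mest-KO 2. Its summed intensity ran from 5803 to 7670 in Mest-KO and from 5327 to 6172 in control, and Krt17, Grhl3 and Nkx2-1 were below the filter. Its part in the member values was not tested.

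Periotic mesenchyme markers, with 16 of 18 genes above the filter, ran from 7.30 to 8.76 in Mest-KO and from 7.13 to 8.22 in control, with Meox1 and Meox2 below the filter. Their summed intensity ran from 9103 to 17374 in Mest-KO and from 8445 to 13482 in control. The mean of the epithelial set thus ranged over 0.08 log2 units across arrays on which the mesenchyme list ranged over 1.63. Roles that moved in different ways were averaged in that mean. By role the range ran from 0.05 for splicing and sorting to 0.35 for the desmosome and 0.42 for keratins. Endothelial markers ran from 6.20 to 6.79 in Mest-KO and from 5.80 to 6.42 in control, and 7 of 11 genes, Pecam1 and Cdh5 among them, were below the filter. Of the tested probe sets, 20 of 25 on the mesenchyme list and all 7 on the endothelial list lay higher in Mest-KO, with 0 calls. The median changes of these lists were 0.38 and 0.26, beside -0.01 over all probe sets tested, of which 51.7% lay lower. The part of these tissues in single members was not tested.

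**Figure D5:**
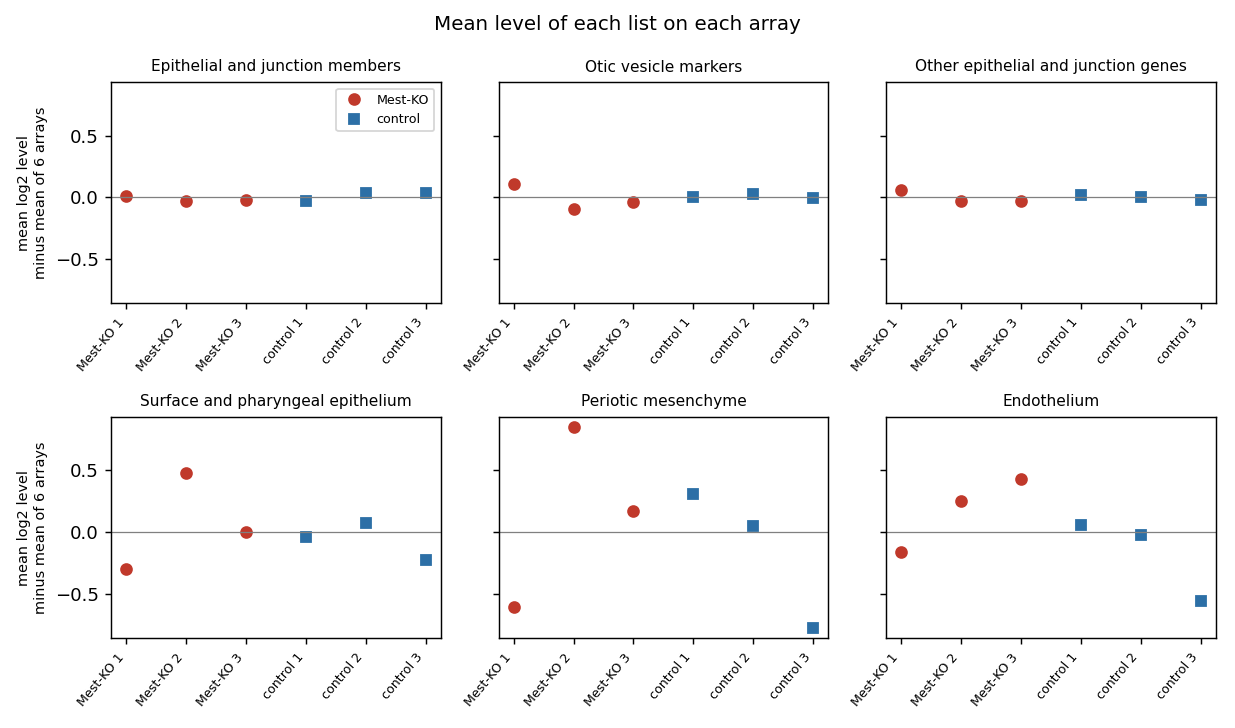
Mean normalized log2 level of 6 gene lists on each array, as the difference from the mean of the 6 arrays (y axis), Mest-KO in red circles and control in blue squares. The mean of all epithelial and junction members stays within 0.08, while the periotic mesenchyme list spans 1.63 and is lowest in Mest-KO 1 and control 3.

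The genes that bind the E-box were read from a list of repressors and mesenchymal genes. Prrx1 and Twist1 are also on the periotic mesenchyme list, so these lists are not independent. Of its 19 tested probe sets 14 lay higher, as did 13051 of all 27022 tested. The median change of the list was 0.21, with 0 calls. At an unadjusted limma p under 0.05 there were 3 lower and 1 higher, against 2.25% and 1.74% of all probe sets tested. The 3 lower were all the probe sets of Vim, the filament protein vimentin, at -0.30 (SE 0.101), -0.26 (SE 0.0893) and -0.25 (SE 0.0999), each with no overlap. Its brightest, of the cross-hybridising design, had 10885, 10107 and 10146 in Mest-KO, against 13121, 12796 and 12892 in control. Vim thus lay lower in Mest-KO, while most of the periotic mesenchyme list lay higher. Cdh2 had 6441, 6511 and 5564 in Mest-KO, against 5426, 5517 and 5378 in control, with no overlap. Its change was 0.21 (SE 0.0944), and 0.13 (SE 0.152) at its dimmer probe set. Zeb1 had 445, 836 and 627 in Mest-KO, against 615, 421 and 269 in control, with overlap and a change of 0.57 (SE 0.358). Snai2 had 622, 731 and 637 in Mest-KO, against 510, 439 and 390 in control, with no overlap and a change of 0.56 (SE 0.132, limma adjusted p = 0.9695), at a probe set of the cross-hybridising design. Its other probe set gave 0.46 (SE 0.216), with overlap in the normalized values. Zeb2 differed by 0.05 (SE 0.369) at its brighter probe set and by 0.47 (SE 0.3935) at its dimmer one. Snai1 differed by -0.34 (SE 0.198). Zeb1 and the brighter Zeb2 probe set were highest in Mest-KO 2, where the mesenchyme markers were also highest. The dimmer Zeb2 probe set had 25.5, 49.5 and 66.1 in Mest-KO and was highest in Mest-KO 3.

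The pools were not alike in other respects. Mest-KO 1 had an Xist intensity of 16.1, against 2331 or more elsewhere, and control 2 had an Eif2s3y intensity of 12.1, against 1373 or more elsewhere, so these pools held embryos of 1 sex. Mest-KO 3 stood apart on the first principal component, at 64.6 against -20.0 to -6.65 for the others, and that component held 35.0% of the variance. Without it the median change of the set was -0.05, with 0 calls. Without both single-sex pools it was -0.08, with 0 calls.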

How the data were processed

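Affymetrix mouse arrays read 3 Mest-KO and 3 control pools. Per the labels' protocols, dispase (30 min, 37 °C) freed the vesicles from periotic tissue, and 300 ng of total RNA went into each labelling. The deposited table holds linear intensities, 1 per probe set. Per the submitters' processing notes, the authors used Affymetrix Expression Console 1.1, and every array has a trimmed mean of 500 (2% trimmed from each end). How probes were summarised, and how background was removed, is not stated in the labels or files. No detection calls were used, and precision is set by how few arrays there are. Replicates are labelled biological. The p-values set the difference between groups against the spread between pools within a group, which limma moderates over all probe sets tested.

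From the 45101 probe sets, 64 controls were left out. The platform annotation gave 1 symbol to 34945 probe sets, several to 932 and none to 9160, and 1 probe set shared by Krt17 and Krt14 was not counted as a member. Values were floored at 1, moved to log2 and quantile normalized. Probe sets with a mean above the 40th percentile were tested with limma (version 3.58.1, under R 4.3.3). It was run as lmFit, then eBayes with no trend and no covariate. This fit alone, without the scaling or the filter, was tested on simulated log2 values. Plots used matplotlib 3.10.9 and Python 3.11.15. By rule, all 33 members were named by role, with array values for Epcam and the member of smallest p in each role, and genes of the second list were named at an unadjusted p under 0.05. Array values of further members were added after they were seen. The members and lists were chosen with earlier results of these data known, and the promoter motifs after the array values were seen. Alternatives changed the filter, scaling, floor, prior, array weights, probe set choice, replicate block and the arrays included.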

Additional observations from a re-analysis of the deposited data

Results flagged for a closer look

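A probe set of Krt14, a keratin of stratified epithelia, lay below the filter and entered no comparison, yet its deposited signal in every Mest-KO array was above that of every control array. Its intensities were 16.1, 58.4 and 11.5 in Mest-KO, against 5.97, 1.08 and 10.4 in control. In the normalized values the groups overlapped, as Mest-KO 3, at 2.87, lay below control 3, at 3.44. Its probes are of the cross-hybridising design, and the other probe sets given to Krt14 alone overlapped on both scales. A probe set shared by Krt17 and Krt14 was apart the other way in the deposited values, lower in Mest-KO. Signals this dim give no size of a difference.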

How the results depend on the processing

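No member passed the adjusted threshold under any alternative, and the smallest limma adjusted p of a member under them was 0.717. The count of all probe sets past it, 0 here, reached 9 when only probe sets above the 60th percentile were kept, 1 with no filter, 15 with median centring, 14 with a prior following level (the trend), 17 when that prior was also robust, 13 with 1 probe set per gene and the trend (added after seeing the data), and 1 at an adjusted p under 0.10. The count of members at an unadjusted p under 0.05, 0 here, was 1 with the 60th percentile, median centring or array weights, 2 with the deposited scaling, 5 with the trend, robust or not, and 2 with 1 probe set per gene and the trend. Those 5 were the 3 Krt8 probe sets, Krt18 and 1 of Spint2. With an array left out this count ran from 0 to 2, reaching 2 without Mest-KO 1 (Krt18 and Esrp2) and without Mest-KO 3 (both Krt8), and the median change ran from -0.0801 to -0.0342, the lowest without Mest-KO 1. It was -0.0850 without the single-sex pools. Median centring moved the median of all probe sets to -0.124, and the members to a median of -0.196 and a mean difference of -0.171; relative to all probe sets the median member was at -0.0721 with median centring and with the deposited scaling, and at -0.0312 with quantile normalization. The sign of 5 of 31 member genes changed with median centring and of 7 without control 3. The cause of these shifts was not tested. Same-numbered arrays did not deviate together (r of -0.0409, -0.00655 and 0.0329), so the numbers are not taken as pairs; with the replicate block 1 member, Itgb4, had an unadjusted p under 0.05, and 0 probe sets passed. Signal limits the dimmest members, where intervals reach past 2-fold.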

Other observations

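The probe set that the annotation gives to both Krt17 and Krt14 entered no comparison. Its intensities were 4.10, 1.097 and 5.52 in Mest-KO, against 15.6, 14.7 and 24.2 in control, all under the filter. Every Mest-KO value lay below every control value, opposite in direction to the Krt14 probe set flagged above.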
